A study of Mus musculus with 12 samples.

Results

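The 6 control tumours of this series, titled Ren1 to Ren6, are 6 of its 12 arrays, and what they expressed at baseline is described here across 19938 genes. They were chosen by title alone, and the genes were then ordered by mean log2 signal over the 6 tumours and by the standard deviation (SD) among them. All grew from OS 80, a luciferase-tagged osteosarcoma line that is 1 line from the tumour of 1 female mouse, aged 224 days, on the right front leg and shoulder. That mouse had the genotype Osx-Cre+p53fl/+pRbfl/fl on a mixed background of C57, 129 and FvBN. The promoter of Osx, also called Sp7, drives the recombinase in the osteoblast lineage. The control cells carried 1 short hairpin RNA, Renilla.1309, against a luciferase gene that mice lack. The hosts were Balb/c nu/nu mice, which lack a thymus, and each tumour grew for 4 weeks on the back flank opposite a tumour of the same line with a PTHR1 hairpin. The tumours that carry that hairpin enter below only where the spread or the skin and muscle genes of other tumours are given. Line and host are both mouse, so RNA of tumour cells and of host cells was read by the same probes. In such bulk samples, fewer cells of a type and less RNA per cell cannot be told apart.

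Osteosarcoma is a bone tumour whose cells lay down matrix like osteoblasts, the cells that build bone. Osteoblasts are specified by transcription factors such as Runx2 and Sp7, secrete collagen I and other matrix proteins, and mineralise them with the help of alkaline phosphatase. Some become osteocytes embedded in the bone, and bone is in turn resorbed by osteoclasts, which derive from the macrophage lineage and not from the osteoblast. Loss of p53 and Rb, both brakes on cell division, is frequent in the human disease.

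A value here is the log2 brightness of a probe set, and 1 unit is a 2-fold difference. Probe sets differ in how strongly they respond, so an order of genes by signal is an order of array signals and not of transcript numbers. As a reference for genes without transcript, 1196 receptor genes of the nose (olfactory and vomeronasal) had a median signal of 4.90 and a 95th percentile of 6.59, called the receptor background below. Above it lay 13861 genes, or 69.5% of those measured. The median gene had a mean of 8.03 and an SD of 0.11, and the top 10% by signal began at 10.88. A gene was counted as variable when its highest and lowest tumour differed by at least 1 on the log2 scale, a 2-fold range. That held for 460 genes, 2.31% of all, and 120 had a 4-fold range. Among the 15 pairs of tumours Spearman's rho across genes was 0.988 to 0.997, with genes not independent replicates.

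Tumours 2 and 3 stood apart from the rest, and for most of the genes with a 2-fold range the count rests on them. Without tumour 2 the count fell to 193, without tumour 3 to 360, and in the 4 tumours left without both it was 110. Of the 100 genes with the highest SD, 66 were highest in tumour 2 and 29 in tumour 3, with 3 highest in tumour 4 and 2 in tumour 5. Those of tumour 2 were led by genes of the epidermis and those of tumour 3 by genes of skeletal muscle. Promoters of 4 such genes, with those of 2 bright bone genes for contrast, are shown because the members of each pair were high in the same tumour. The sequences cover the 120 bases before the start site, 5′ to 3′, from RefSeq on build GRCm38.p6. Capitals mark matches on either strand to 4 motifs. The TATA box was searched as the letters TATAAA, and the E-box as CAGCTG, which reads the same on both strands. The AP-1 site was searched as TGAGTCA, and the last motif was the pentamer CCAAT. No 2 of the matches shown overlapped. Ibsp (chr5:104299167-104299286, plus strand) and Mmp13 (chr9:7272394-7272513, plus strand) were among the 20 brightest genes. Lor (chr3:92083143-92083262, minus strand) and Krt10 (chr11:99389365-99389484, minus strand) were high in tumour 2, and Myh4 (chr11:67237692-67237811, plus strand) and Atp2a1 (chr7:126463074-126463193, minus strand) in tumour 3.
Ibsp: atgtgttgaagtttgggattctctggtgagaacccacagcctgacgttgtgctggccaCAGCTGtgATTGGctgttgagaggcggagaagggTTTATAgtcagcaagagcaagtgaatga
Mmp13: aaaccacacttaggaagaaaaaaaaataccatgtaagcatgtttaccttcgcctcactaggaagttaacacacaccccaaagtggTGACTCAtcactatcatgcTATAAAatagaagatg
Lor: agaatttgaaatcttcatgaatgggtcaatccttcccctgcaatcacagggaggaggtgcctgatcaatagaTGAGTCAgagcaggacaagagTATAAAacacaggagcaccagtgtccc
Krt10: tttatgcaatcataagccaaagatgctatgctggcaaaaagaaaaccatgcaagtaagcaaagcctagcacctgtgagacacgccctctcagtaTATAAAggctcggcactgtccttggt
Myh4: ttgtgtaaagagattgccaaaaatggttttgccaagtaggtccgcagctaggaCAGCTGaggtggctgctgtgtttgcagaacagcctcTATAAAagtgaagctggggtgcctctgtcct
Atp2a1: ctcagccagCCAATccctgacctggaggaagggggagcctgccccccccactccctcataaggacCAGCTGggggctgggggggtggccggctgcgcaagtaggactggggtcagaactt
Over the 250 bases before a start site, the E-box letters were found in 10 of the 18 skeletal muscle genes with a promoter in the table. They were found in 14.7% of all 27025 genes there. The same letters were in 4 of 12 bone matrix, 4 of 17 keratinocyte, 2 of 17 secretory pathway and 0 of 9 osteoclast genes. The AP-1 letters were found in 4 of 17 keratinocyte, 3 of 17 secretory pathway, 1 of 12 bone matrix, 0 of 18 muscle and 0 of 9 osteoclast genes, and in 5.16% of all genes. The TATA letters were in 6 of 17 keratinocyte, 4 of 18 muscle, 3 of 12 bone matrix, 0 of 17 secretory pathway and 0 of 9 osteoclast genes, and in 14.3% of all. The CCAAT letters were in 14 of 17 secretory pathway, 8 of 18 muscle, 4 of 12 bone matrix, 4 of 17 keratinocyte and 2 of 9 osteoclast genes, and in 37.5% of all. With 9 to 18 genes a list these shares are coarse, and no motif was found in 1 list alone. A match of letters is a description of the sequence, not a bound site.

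Keratinocytes, the cells of the epidermis, make keratins and the proteins of the cornified layer. All 25 measured members of a keratinocyte list had a 2-fold range, were highest in tumour 2 and had that tumour apart from the other 5, and 20 of 25 had a mean above the receptor background. A tumour was said to stand apart where its gap to the nearest of the others, as a share of the whole range, exceeded Dixon's 95% critical value for 6 samples, which held for 7.37% of all genes. Krt1, a keratin of the upper epidermis with the highest SD of any gene (2.49), read 5.89, 11.98, 5.93, 5.60, 6.23 and 5.86 in tumours 1 to 6. In tumour 2 it was 68.2-fold above the median of the other 5. Its partner keratin Krt10 read 7.07, 11.68, 6.998, 6.998, 7.29 and 6.93. Lor, the main protein of the cornified envelope, read 6.75, 11.35, 6.69, 6.88, 6.76 and 6.64. Krt5 and Krt14, the keratin pair of the basal layer, reached 11.12 and 11.48 in tumour 2 and lay at 6.46 to 6.85 and at 7.56 to 7.96 in the others. Hair follicle keratin Krt25 was also among the 20 most variable genes, 17.2-fold above the median of the other 5 in tumour 2. The mean of the list was 9.59 in tumour 2 and 6.48 to 6.59 in the rest. Without tumour 2, 0 of 25 members had a 2-fold range.

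Skeletal muscle genes, by contrast, differed at both ends, with tumour 3 high and tumour 1 low. Each of the 22 members had a 2-fold range and was highest in tumour 3, and 21 were lowest in tumour 1. Myh4, the myosin heavy chain of the fastest fibres, read 6.22, 7.01, 11.16, 6.96, 7.88 and 6.78. Atp2a1, the calcium pump of fast muscle, read 7.52, 8.94, 11.96, 8.66, 9.02 and 9.27. Both were far above the rest in tumour 3 and lowest in tumour 1. Myl1, a myosin light chain and the brightest gene of the list, read 8.91, 10.58, 12.69, 10.94, 10.64 and 11.14, and Acta1, skeletal actin, 8.90, 9.86, 11.94, 10.02, 9.88 and 10.63. The list mean was 7.36 in tumour 1, 8.22 to 8.62 in tumours 2, 4, 5 and 6, and 10.43 in tumour 3. Without tumour 3, 13 of 22 members kept a 2-fold range.

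The tumours that grew opposite, which the ordering by SD did not use, also varied in skin genes and, less widely, in muscle genes. Their keratinocyte means were 9.31, 6.94, 6.61, 10.31, 7.39 and 6.55 for the partners of tumours 1 to 6, so a high value in 1 tumour was not shared by the tumour on the other flank. Their skeletal muscle means were 9.43, 9.13, 8.22, 8.89, 9.001 and 8.12. Of the 100 genes with the highest SD, 96 also lay in the top 10% by SD among those 6 other tumours. Krt1 had an SD of 2.76 there and Myh4 one of 0.90, against 2.49 and 1.79 in the control tumours.

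**Figure D1:**
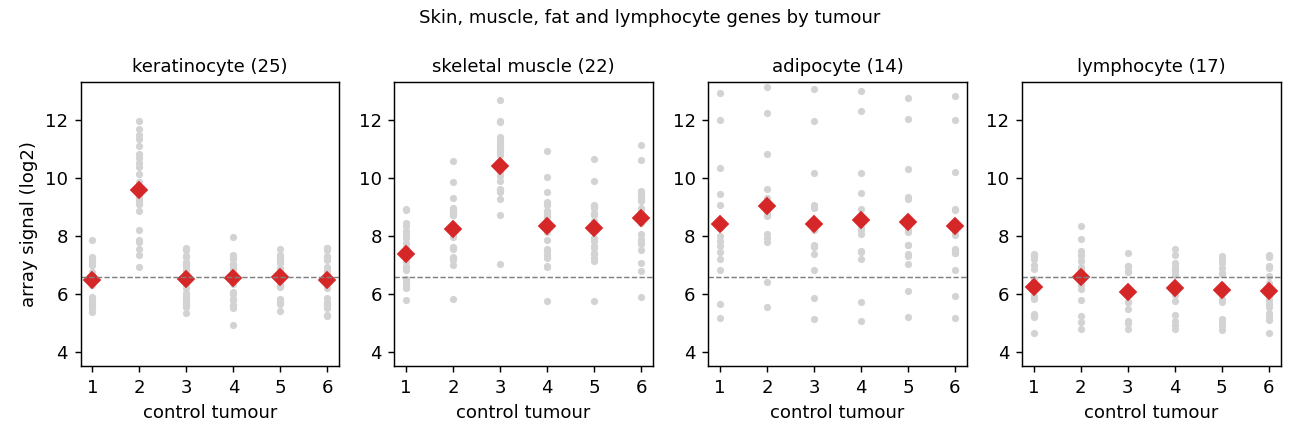
Array signal (log2, vertical axis) of the members of 4 gene lists in each control tumour (horizontal axis, 1 to 6); grey points are genes, red diamonds are list means, and the dashed line is the receptor background at 6.59. Keratinocyte genes were high in tumour 2 alone (mean 9.59), skeletal muscle genes highest in tumour 3 (10.43) and lowest in tumour 1 (7.36), and fat and lymphocyte genes highest in tumour 2.

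Most fat and lymphocyte genes were also highest in tumour 2, by smaller margins than the epidermal ones. In the adipocyte list 12 of 14 members were highest in tumour 2, whose list mean of 9.01 stood apart from 8.35 to 8.56 in the others. Adipoq, the fat hormone adiponectin, read 6.81, 7.80, 6.82, 7.47, 7.03 and 6.81, and Retn, the hormone resistin, 7.83, 8.82, 7.68, 8.20, 7.70 and 7.55. Cidec, Retn and Dgat2 had a 2-fold range, and without tumour 2 the number was 0. Car3, abundant in fat and in muscle, was bright in every tumour, at 12.96 ± 0.14 (mean ± SD, n = 6, as throughout). In the lymphocyte list 13 of 17 members were highest in tumour 2, and 11 of 17 did not exceed the receptor background on average. Nkg7, of cytotoxic and natural killer cells, read 7.31, 8.36, 6.78, 7.56, 7.21 and 6.62, and Cd4, the coreceptor of helper T cells, 7.39, 7.90, 6.75, 7.07, 6.73 and 6.97. The 2 lymphocyte genes with a 2-fold range fell to 0 without tumour 2. Nude mice lack most T cells but keep natural killer and B cells. The part of skin-associated tissue in these values was not tested.

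The brightest genes were nearly the same in every tumour. Ribosomal, mitochondrial, histone and small RNA genes were left out, as were predicted genes, those with provisional symbols. The 20 brightest of the rest had means from 13.50 to 14.32 and SDs from 0.02 to 0.07. Of these 20, 14 were among the 20 brightest in each tumour. By role some were matrix proteins (Sparc, Col1a1, Col1a2, Ibsp, Bgn, Tnc and Olfml3) and some proteases and osteoclast enzymes (Mmp13, Mmp9 and Acp5). Others were genes of translation, cytoskeleton and signalling (Eef1a1, Eef2, Pabpc1, Eif4a1, Tpt1, Actb, Vim, Txn1 and Gnb1). The last was Baiap2l1, an adaptor of the actin cytoskeleton, whose 3 probe sets disagreed. They had means of 6.96, 12.27 and 14.32, so its first place is that of 1 probe set. The gene just outside the 20 had a mean of 13.48.

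**Figure D2:**
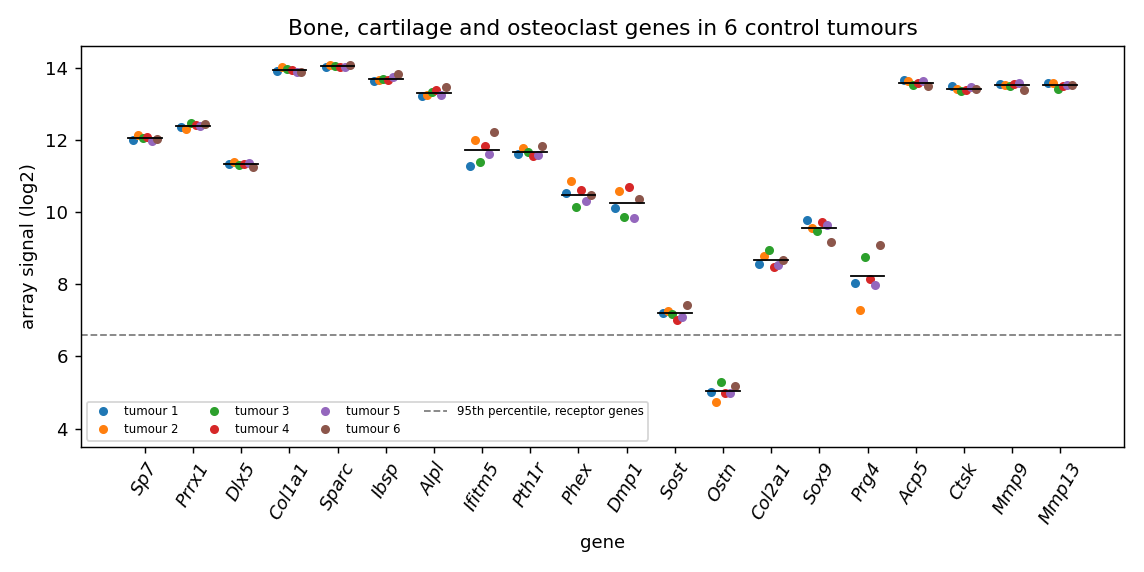
Array signal (log2, vertical axis) of 20 bone, cartilage, osteoclast and protease genes (horizontal axis) in each of the 6 control tumours; coloured points are tumours, black bars are means, and the dashed line is the receptor background at 6.59. Sp7, Col1a1, Sparc, Acp5 and Mmp13 hardly differed in signal between tumours, Ifitm5, Dmp1 and Prg4 differed more, and Ostn lay below the line. Differences among the brightest genes are compressed on this scale.

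Genes of the osteoblast lineage were bright. Of 15 measured transcription factors all lay above the receptor background and 5 lay in the top 10% by signal. Sp7, the factor whose promoter was used to drive the recombinase, read 12.01, 12.13, 12.04, 12.09, 11.95 and 12.01 in tumours 1 to 6, 12.04 ± 0.06. Prrx1, of limb mesenchyme, was at 12.39 ± 0.06, Zfhx4 at 11.54 ± 0.16 and Dlx5, which acts upstream of Sp7, at 11.33 ± 0.05. The dimmest was Msx2, a homeobox factor of skull and limb, at 6.79 ± 0.25, and Twist2, a brake on osteoblast maturation, was at 7.93 ± 0.22. None of the 15 had a 2-fold range. Runx2 was not analysed here.

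Bone matrix and mineralisation genes were brighter still, with a median of 11.71 over 15 members, at the 96.4th percentile of all genes. Of the 15, 12 lay in the top 10% and 0 had a 2-fold range. Sparc, which binds collagen and calcium, was at 14.04 ± 0.02 and its SD was among the lowest of any gene. At so bright a signal differences are compressed, so this SD need not mean a steady transcript level. Col1a1 and Col1a2, the 2 chains of collagen I, were at 13.94 ± 0.05 and 13.92 ± 0.04. Ibsp, bone sialoprotein, read 13.62, 13.67, 13.67, 13.66, 13.73 and 13.82, and Alpl, the alkaline phosphatase of bone, 13.20, 13.25, 13.32, 13.37, 13.24 and 13.46. Both were highest in tumour 6 and lowest in tumour 1, by small margins. Pth1r, the receptor for parathyroid hormone, was at 11.66 ± 0.11, from 11.54 in tumour 4 to 11.82 in tumour 6. The members with most spread were Ifitm5, a membrane protein of mineralising osteoblasts, and Omd, the proteoglycan osteomodulin. Ifitm5 read 11.27, 11.99, 11.40, 11.83, 11.60 and 12.21, a 1.91-fold range, and Omd 9.71, 9.30, 10.04, 10.14, 9.46 and 9.55. They did not share an order, since Ifitm5 was highest in tumour 6 and Omd in tumour 4. Col24a1, a minor fibrillar collagen, was at 9.33 ± 0.26 and Col13a1, a membrane collagen, was the dimmest member at 8.67 ± 0.13. Bglap, which encodes osteocalcin, and Spp1 were not analysed here.

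Genes of the osteocyte were mixed. Of 14 members 11 lay above the receptor background and 2 in the top 10%, and 0 had a 2-fold range. Several were bright. Phex, a peptidase that governs phosphate, read 10.52, 10.87, 10.13, 10.60, 10.30 and 10.48, and Dmp1, a phosphoprotein of the mineralising matrix, 10.11, 10.59, 9.85, 10.68, 9.83 and 10.36. Dmp1 was high in tumours 2 and 4 and low in tumours 3 and 5, a 1.80-fold range. Gja1, the gap junction protein that joins osteocytes and many other cells, was at 12.43 ± 0.10. Cd44, a receptor for hyaluronan, was at 10.65 ± 0.08. Tnfsf11, the RANKL cytokine that drives osteoclast formation, was at 10.94 ± 0.24. Others were dim. Sost, the Wnt inhibitor of mature osteocytes, was at 7.19 ± 0.14, only a little above the receptor background, and Mepe, Kera and Ostn were below it.

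Cartilage genes were dimmer as a group, with a median of 7.50 over 22 members, at the 43.6th percentile, and 6 of 22 (Acan, Matn1, Matn3, Ucma, Cnmd and Epyc) were not above the receptor background. Sox9, the cartilage master factor, was at 9.55 ± 0.22 and Col2a1, the main cartilage collagen, read 8.56, 8.79, 8.96, 8.47, 8.53 and 8.67. Col11a1, a collagen of cartilage that osteoblasts also make, was the brightest at 10.80 ± 0.12. Prg4, the joint lubricant, and Sox6 were the members with a 2-fold range. Prg4 read 8.03, 7.28, 8.75, 8.14, 7.99 and 9.09, high in tumours 6 and 3 and low in tumour 2. Sox6 read 8.22, 8.31, 8.50, 7.96, 8.01 and 8.997, highest in tumour 6. Without tumour 4, or without tumour 6, 1 of these kept that range.

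**Figure D3:**
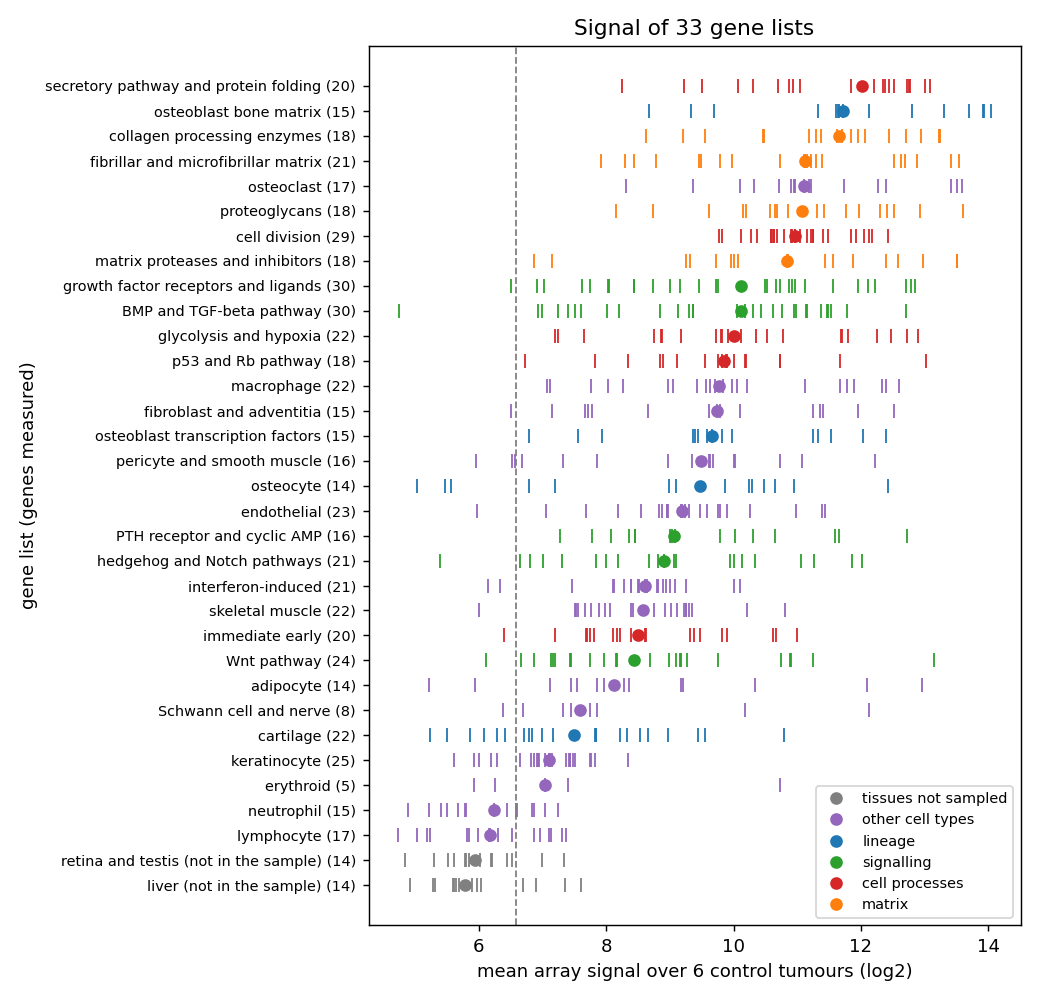
Mean array signal over the 6 control tumours (log2, horizontal axis) of the measured members of 33 gene lists (vertical axis, number of genes in brackets); ticks are genes, dots are list medians, colours give the kind of list, and the dashed line is the receptor background at 6.59. Secretory, bone matrix and collagen processing genes had the highest medians, and lists of liver and of retina and testis, tissues not in the sample, the lowest.

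Other matrix genes were bright but varied more. The fibrillar and microfibrillar list had a median of 11.12 (92.5th percentile), with 12 of 21 members in the top 10%. Tnc and Fn1, the adhesive glycoproteins tenascin C and fibronectin, were at 13.54 ± 0.05 and 13.41 ± 0.08, and Col12a1, a collagen associated with fibrils, at 12.89 ± 0.17. The list was highest in tumour 3, where 14 of 21 members had their highest value, and 11 were lowest in tumour 2. Postn, the matrix protein periostin, read 12.65, 12.12, 13.23, 12.84, 12.72 and 12.60. Mfap5, of microfibrils, read 9.61, 8.95, 10.28, 10.30, 9.90 and 9.71 and Col14a1, a collagen that binds fibril surfaces, 9.17, 8.80, 10.10, 9.85, 9.58 and 9.28. These 3 were the members with a 2-fold range, all lowest in tumour 2, and without tumour 2 the number was 0. Proteoglycans had a median of 11.08 (91.9th percentile), led by Bgn and Fmod, the collagen-binding biglycan and fibromodulin, at 13.60 ± 0.04 and 12.92 ± 0.16. Lum, lumican, read 9.68, 9.25, 9.92, 10.66, 9.48 and 8.71, highest in tumour 4 and lowest in tumour 6. With Ogn it had a 2-fold range, which 1 of them kept without tumour 2. Mfap5 and Lum are also on a fibroblast and adventitia list, as is Sfrp2, given below with the Wnt genes. In that list 4 of 15 members had a 2-fold range, and 2 without tumour 2. Its mean was highest in tumour 3 (9.85) and lowest in tumour 2 (9.30). The part of host fibroblasts in these matrix values was not tested.

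The enzymes that build collagen were almost as bright as the matrix, with a median of 11.66 (96.1st percentile) and 13 of 18 in the top 10%. Ppib, a folding enzyme of procollagen, was at 13.24 ± 0.04 and Pcolce, which speeds removal of the procollagen tail, at 13.22 ± 0.06. P4ha3, a prolyl hydroxylase subunit, read 9.01, 7.59, 9.13, 9.01, 8.65 and 8.32 and was low in tumour 2. The 2 collagen enzymes with a 2-fold range fell to 0 without tumour 2 and to 1 without tumour 3. The secretory and folding list had the highest median of all, 12.02 (97.6th percentile), and 0 of its 20 members had a 2-fold range. That first place depended on the measure. Its median was 11.44 when the probe sets of a gene were averaged. By the mean over members it was at 11.448, below the 11.965 of bone matrix genes. Sec61a1, of the translocation channel, was at 13.09 ± 0.05 and the chaperones Canx and Hspa5 at 13.00 ± 0.06 and 12.75 ± 0.09. Ddit3, a stress-induced factor of the same pathway, was the dimmest at 8.25 ± 0.19. Matrix proteases were led by Mmp13, the collagenase, at 13.51 ± 0.06 and Mmp2, a gelatinase, at 12.97 ± 0.11, with Timp1, an inhibitor, at 12.59 ± 0.08. Mmp3, a stromelysin, was the member with a 2-fold range and read 7.60, 6.48, 7.26, 7.50, 7.02 and 7.05, with no such range left without tumour 2.

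Osteoclast genes were among the brightest of the sample. All 17 members lay above the receptor background, 12 lay in the top 10% and 0 had a 2-fold range, with a median of 11.11 (92.5th percentile). Acp5, tartrate-resistant acid phosphatase, was at 13.58 ± 0.07, Mmp9, a gelatinase, at 13.51 ± 0.07 and Ctsk, the protease that digests bone collagen, at 13.42 ± 0.05. Atp6v0d2, a subunit of the proton pump, read 12.55, 12.30, 12.26, 12.43, 12.48 and 12.33. Calcr, the calcitonin receptor, was the dimmest at 8.31 ± 0.18. Car2, the carbonic anhydrase that supplies the protons, had the most spread and read 11.49, 11.04, 11.19, 11.05, 11.55 and 10.76. Of the 17, 13 were highest in tumour 1 and 9 lowest in tumour 6, but the list means differed only from 11.17 to 11.45.

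Macrophage genes were present in every tumour, with 22 of 22 above the receptor background and a median of 9.77. Fcer1g, an Fc receptor chain, was at 12.59 ± 0.13, Lyz2, a lysozyme, at 12.39 ± 0.15 and Cd68, a lysosomal protein that osteoclasts share, at 12.32 ± 0.11. The list was highest in tumour 4 (14 of 22 members) and lowest in tumour 3 (11 of 22). C1qc, a complement chain, read 10.14, 10.62, 9.85, 10.69, 9.85 and 10.12, high in tumours 2 and 4. Lyz1, a lysozyme close in sequence to Lyz2 so that the split between them is uncertain, read 9.81, 9.21, 10.75, 10.73, 10.23 and 9.57 and was the member with a 2-fold range. Neutrophil genes were dim, with a median of 6.24, and 9 of 15 did not pass the receptor background. S100a8, one of the most abundant transcripts of neutrophils, was at 5.23 ± 0.25, and Csf3r, the receptor for granulocyte colony-stimulating factor, was the brightest of that list at 7.24 ± 0.20. Endothelial genes had a median of 9.20, with Cdh5, the junction protein of vessels, at 11.44 ± 0.14 and Pecam1 at 10.26 ± 0.14. Of 23 members, 14 were lowest in tumour 5, whose list mean of 9.10 lay apart from 9.20 to 9.23 in the others. Lyve1, which lymphatic vessels and some macrophages carry, read 9.10, 7.45, 9.30, 9.36, 9.63 and 8.19 and was low in tumour 2. The lymphatic factor Prox1 was not above the receptor background, at 5.97 ± 0.07. Among pericyte and smooth muscle genes, Pdgfrb was at 12.23 ± 0.11 and Acta2 at 10.73 ± 0.10, and the 1 with a 2-fold range was Des, which is also on the skeletal muscle list.

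**Figure D4:**
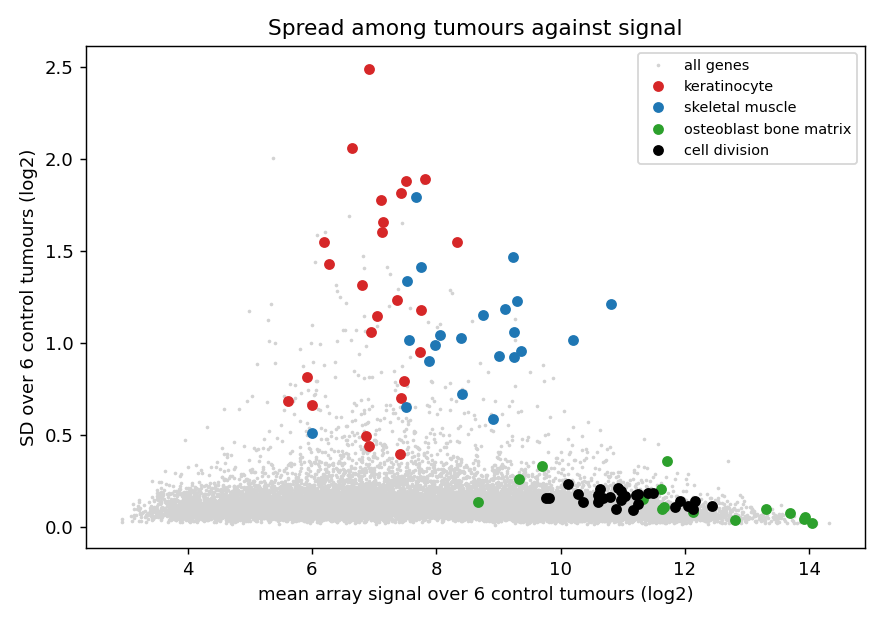
SD among the 6 control tumours (log2, vertical axis) against mean array signal (log2, horizontal axis); each grey point is 1 of 19938 genes and coloured points are members of 4 lists. Keratinocyte (SD 0.40 to 2.49) and skeletal muscle genes (0.51 to 1.79) lie above most genes of like signal, while bone matrix (0.02 to 0.36) and cell division genes (0.09 to 0.23) lie below all of the muscle genes.

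Cell division genes were bright, with a median of 10.97 (91.1st percentile) and 17 of 29 in the top 10%. Ccna2 and Ccnb2, cyclins of DNA synthesis and mitosis, were at 12.43 ± 0.11 and 12.17 ± 0.14, and Pcna and Cdk1 at 12.12 ± 0.10 and 12.04 ± 0.11. None of the 29 had a 2-fold range, but most were highest in the same tumour. Their median SD was 0.155, above the 0.11 of all genes, and that of bone matrix genes was 0.097. Of 29 members 23 were highest in tumour 5 and 17 lowest in tumour 6, with list means of 11.10, 10.95, 10.94, 11.10, 11.25 and 10.87. Rrm2, which makes DNA precursors, had the most spread and read 10.16, 10.03, 10.10, 10.27, 10.43 and 9.74. In the p53 and Rb list, Cdk4, the kinase that inactivates Rb, was at 13.02 ± 0.04, its partner cyclin Ccnd1 at 11.68 ± 0.11, the Rb relative Rbl1 at 10.73 ± 0.11 and the Rb target E2f1 at 10.73 ± 0.09. Rb1 itself read 10.16, 10.27, 9.98, 10.18, 10.21 and 10.35. Which exons its probes read is not known here, and host cells carry an intact gene, so this signal does not check the deletion. Trp53 was not analysed here. Bbc3, a p53 target that promotes cell death, was the dimmest at 6.72 ± 0.08.

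Glycolysis and hypoxia genes ordered the tumours differently. Of 22 members, 13 were highest in tumour 3 and 8 in tumour 6, and 13 were lowest in tumour 5 and 8 in tumour 2. The list means were 10.45 in tumour 3, 10.44 in tumour 6, 10.17 in tumour 1, 10.09 in tumour 4, 10.04 in tumour 2 and 9.98 in tumour 5. Tumour 5, highest in cell division genes, was lowest here, and tumour 3 was also the one with the highest muscle genes. Egln3, an oxygen-sensing hydroxylase, read 8.93, 9.14, 9.71, 8.57, 8.51 and 10.17 and Bnip3, a hypoxia-induced gene of mitochondrial turnover, 10.26, 10.08, 10.87, 10.03, 9.81 and 11.05. With Ankrd37 and Vegfa, the vessel growth factor, these had a 2-fold range, and all 4 kept it without tumours 2 and 3, but 2 did without tumour 6. The 4 were highest in tumour 6, where the muscle list mean was 8.62, the highest after the 10.43 of tumour 3. The part of muscle tissue in these values was not tested. Ldha, lactate dehydrogenase, was bright and steady at 12.90 ± 0.10, and Aldoa, aldolase, was at 12.72 ± 0.12.

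Interferon-induced genes had a median of 8.61, with 19 of 21 above the receptor background (Mx1 and Mx2 were not) and none in the top 10%. Of 21, 16 were lowest in tumour 6, and 9 were highest in tumour 1 and 9 in tumour 4. Cxcl10, a chemokine induced by interferon gamma, read 8.81, 9.74, 8.22, 9.49, 8.75 and 8.32, high in tumours 2 and 4, and with Gbp3 it had a 2-fold range, which 1 of them kept without tumour 2 and 1 without tumour 6. Rsad2, an antiviral enzyme, read 8.48, 8.25, 7.57, 8.35, 8.13 and 7.86. Oasl2 was the brightest at 10.10 ± 0.16.

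**Figure D5:**
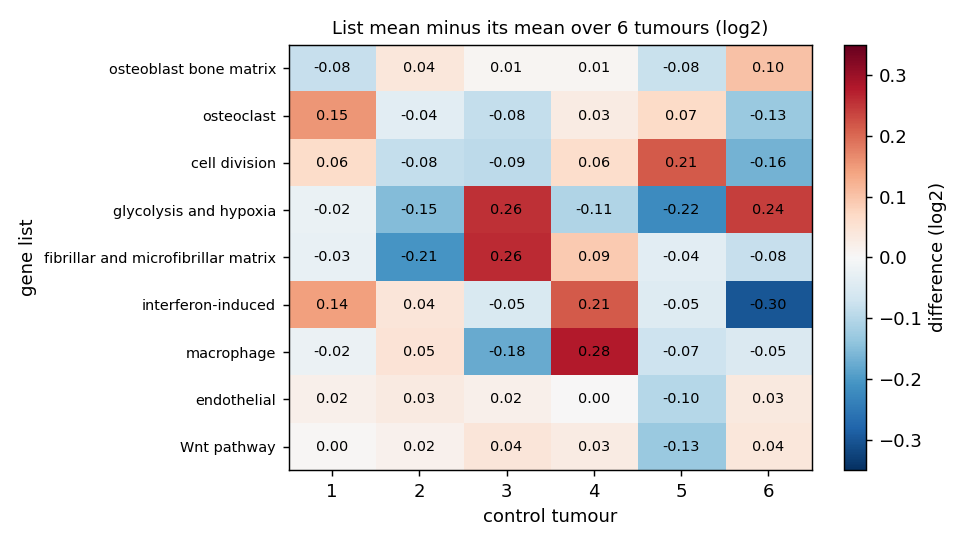
Mean of each list in each control tumour (columns, 1 to 6) minus that list's mean over the 6 tumours (log2, printed in each cell and shown by colour) for 9 gene lists (rows). Cell division genes were highest in tumour 5 (0.21) and lowest in tumour 6 (-0.16), glycolysis and hypoxia genes highest in tumours 3 (0.26) and 6 (0.24) and lowest in tumour 5 (-0.22), and interferon-induced genes lowest in tumour 6 (-0.30).

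Signalling genes covered most pathways of bone. In the parathyroid hormone and cyclic AMP list, 16 of 16 lay above the receptor background and 0 had a 2-fold range. Creb3l1, a factor that osteoblasts use for collagen secretion, was the brightest at 12.72 ± 0.08. Of the phosphodiesterases that break down cyclic AMP, Pde4b read 7.85, 7.86, 8.52, 7.89, 7.92 and 8.44 and Pde7b 8.49, 8.80, 8.21, 8.81, 8.19 and 8.21. In the Wnt list Ctnnb1, beta-catenin, was at 13.14 ± 0.03, and the coreceptors Lrp5 and Lrp6 at 10.89 ± 0.21 and 10.90 ± 0.03. Secreted inhibitors differed widely in signal. Sfrp2, the brightest of them, read 11.65, 11.24, 11.62, 11.12, 11.04 and 10.83 and Wif1 10.62, 10.42, 10.88, 11.06, 10.15 and 11.29, and Wif1 was the member with a 2-fold range, which it lost without tumour 5 or tumour 6. Other secreted inhibitors were dimmer, with Sfrp1 at 8.16 ± 0.30, Dkk1 at 9.10 ± 0.22, Dkk2 at 7.44 ± 0.18 and Dkk3 at 9.28 ± 0.09. Of 24 Wnt members 12 were lowest in tumour 5, whose list mean of 8.58 lay apart from 8.72 to 8.76 in the others.

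In the BMP and TGF-beta list the brightest was Bmp1, which despite its name is a protease that trims procollagen, at 12.70 ± 0.06. The receptors Bmpr2 and Tgfbr2 were at 11.78 ± 0.04 and 11.53 ± 0.08 and the ligand Tgfb3 at 11.49 ± 0.15, whereas the receptor Bmpr1b was not above the receptor background, at 4.75 ± 0.14. Grem1, a BMP antagonist, read 7.53, 7.58, 8.86, 7.89, 7.50 and 8.70, high in tumours 3 and 6, and was the member with a 2-fold range. Bmp3, a BMP ligand of bone, read 7.53, 7.96, 7.37, 7.75, 7.42 and 7.03, and Inhbb, an activin subunit, 8.28, 8.09, 8.37, 7.86, 7.90 and 8.71. Among growth factor genes Fgfr1 was at 12.71 ± 0.06, the ligand Pdgfc at 12.78 ± 0.10 and Igfbp7 at 12.86 ± 0.06. Igfbp3, which binds insulin-like growth factors, read 11.44, 11.15, 12.12, 11.57, 11.03 and 12.04, and its relative Igfbp2 6.60, 8.05, 7.002, 6.86, 6.99 and 6.68, highest in tumour 2. These, Fgf7 and Vegfa had a 2-fold range, 4 of 30, against 2 of 30 without tumour 2 and 1 of 30 without tumour 5. Of hedgehog and Notch genes, the receptor Notch2 was at 12.01 ± 0.08 and the signal transducer Smo at 11.85 ± 0.11. Ptch1, the hedgehog receptor and itself a hedgehog target, read 10.02, 10.38, 10.27, 10.13, 10.09 and 11.15, and Ihh, a hedgehog ligand of cartilage and bone, 7.79, 7.82, 7.75, 7.64, 7.67 and 8.39. Tumour 6 stood apart from the others in both. Of immediate early genes, which respond to stimulation within minutes, Ccn1 read 10.38, 10.49, 10.61, 10.44, 10.57 and 11.24 and Ier3, the member with a 2-fold range, 7.40, 7.91, 7.91, 7.67, 7.38 and 8.63, both highest in tumour 6. Fosl1, an AP-1 subunit, read 8.26, 7.67, 8.29, 8.27, 8.26 and 8.32, low in tumour 2.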

How the data were processed

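Total RNA of 12 tumours was measured on expression arrays, and the 6 titled Ren1 to Ren6 form the control group described. Per the submitters' processing notes, the authors' deposited values are log2 signals from RMA, a method of background correction, normalization between arrays and summary of probes into 1 value per probe set. Those notes also give mm9 as the genome build, while no version of RMA was found. At the dim and at the bright end of the scale, differences in array signal are compressed. No depth applies to arrays, and their number limits the precision. Scan dates and batches are not given in the labels.

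The platform annotation named 23410 of the 35556 probe sets, with a single symbol for 21789, and 12146 stayed unnamed. Entrez identifiers were looked up in a RefSeq table on GRCm38.p6, which held 21698 and changed 0 symbols. The brightest probe set per gene over the 6 tumours was kept, giving 19938 genes, of which 999 had several. From these, means, SDs, ranges, Dixon ratios and ranks were computed with pandas 2.3.3 and numpy 2.4.6. The tumours are separate grafts of 1 line, with 1 group, so no group test applies. The calculation was tested on simulated data.

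The members and the 33 lists (670 genes, 619 measured) were chosen with earlier results of these data known. Named genes were the 20 brightest and the 20 most variable. For the lists the rule gave the 4 brightest, the 3 with the highest SD and the dimmest of each, 237 genes of which 130 are named, and a fixed set of lineage and tumour suppressor genes. Which of these, and which of the 20 most variable, are named was chosen with their values seen. Other names, such as Vegfa, Ogn, Gbp3, Mx1, Dgat2, Mepe, Cdk1 and those under other observations, were chosen after their values were seen. The promoter sequences are those of RefSeq. Alternatives were other ways to pick or average probe sets, median centring, quantile normalization, leaving out each tumour, a signal filter, a trimmed range, other percentiles and, added after seeing the data, leaving out tumours 2 and 3 together and counting lists by mean log2 signal.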

Additional observations from a re-analysis of the deposited data

Results flagged for a closer look

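In 4 of 33 list means and 23 of the 168 genes named, 1 tumour's gap to the nearest other tumour, as a share of the range, exceeded Dixon's 95% critical value for 6 samples; that share is the number in brackets below. Chance gives about 1 in 20 such groups, and 7.37% of all 19938 genes met the rule. Many named genes were picked for their spread, so their number is no result.

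Tumour 2 stood apart as the highest in the keratinocyte list mean (0.965) and the adipocyte list mean (0.687). It did so too in Krt1 (0.901), Krt5 (0.917), Krt10 (0.925), Krt14 (0.898), Krt25 (0.857), Lor (0.950), Dgat2 (0.728), S100a8 (0.788) and Igfbp2 (0.723), and as the lowest in Fosl1 (0.895). Tumour 3 was apart in Myh4 (0.665, highest) and Fcer1g (0.647, lowest), as well as Cd44 (0.647, lowest). Tumour 5 was the lowest in the Wnt list mean (0.776), the endothelial list mean (0.756), Notch2 (0.656) and Eef2 (0.701), and the highest in Txn1 (0.639). Tumour 6 was the highest in Ptch1 (0.683), Ihh (0.758), Ccn1 (0.730), Lepr (0.799) and Slc7a2 (0.784), and the lowest in E2f1 (0.786) and Sec61a1 (0.631). The gap was small in Eef2, Txn1 and Sec61a1, whose 6 values lay within 0.17 log2 units.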

How the results depend on the processing

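Median centring, quantile normalization and either way of choosing or averaging probe sets left the count of genes with a 2-fold range between 458 and 463. The count above the receptor background stayed between 13809 and 13865. These settings could change little. The deposited values were already normalized between arrays, with array medians of 7.55 to 7.61, and only 999 of 19938 genes had several probe sets. The 2-fold count was 128 among genes brighter than the median gene, 26 when each gene's highest and lowest tumour were left out, and 110 without tumours 2 and 3. It ran from 193 to 441 when 1 tumour was left out, the lowest without tumour 2. Genes above the receptor background ran from 13824 to 13932 in the same way, and were 11641 against its 99th percentile. Keratinocyte members with a 2-fold range numbered 1 among the brighter genes, 0 with the trimmed range, 0 without tumours 2 and 3, and 0 to 25 with 1 tumour left out. For skeletal muscle these counts were 14, 2, 13 and 13 to 22. The number of lists in the top 10% was 7 to 8 with 1 tumour left out, 7 without tumours 2 and 3, 6 by the mean log2 signal of members (chosen after seeing the data) and 4 by the mean of members' percentiles (bone matrix, collagen processing, cell division and secretory genes). Of the 100 most variable genes, 74 to 97 lay in the top 10% by SD of the other 6 tumours with 1 tumour left out, and 69 by the median absolute deviation. Of 1848 recomputed gene means, 1843 moved by less than 1 SD, and Baiap2l1 moved most, to 11.18 by the mean of its probe sets. Leaving out 1 tumour, or tumours 2 and 3, cannot move a mean by 1 SD of the 6 values. For those settings this outcome was fixed in advance and says nothing about how firm the means are. Fewer genes are counted among the brighter ones and fewer tumours with the trimmed range. These counts therefore cannot be set directly against the count over all genes and tumours, and what lowered them was not tested. No paired analysis was possible because the results describe 1 group and come from no test between groups. The lack of array replicates limits the results, since spread between tumours and between arrays cannot be told apart.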

Other observations

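A group of genes outside the lists, chosen after their values were seen, varied in a way shared by tumours 2 and 4. Cd74 and H2-Ea, chains of the MHC class II antigen presentation system, read 9.19, 11.12, 8.95, 10.49, 9.43 and 9.12 and 9.27, 11.00, 9.18, 10.37, 9.57 and 8.97 in tumours 1 to 6. H2-Ea is made in Balb/c mice and not in C57BL/6 mice, which lack its promoter. The parental background of the line is mixed, and whether host or tumour cells gave this signal was not tested. Cxcl9, a chemokine induced by interferon gamma, read 9.04, 11.05, 8.48, 10.16, 8.88 and 8.02. In all 3 genes tumour 2 was highest, tumour 4 next and the other 4 below both. The SD of Cd74 was 0.88 among the control tumours and 0.16 among the 6 tumours with the other hairpin. That of H2-Ea was 0.79 and 0.22. Because both genes were picked with their control values seen, a lower SD in the other tumours is partly built in.

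Tumour 6 had high values of genes from no single list. Lepr, the leptin receptor, read 8.13, 8.23, 8.18, 8.40, 7.98 and 10.10 and Slc7a2, a transporter of cationic amino acids, 9.49, 9.61, 9.44, 9.34, 9.47 and 10.58. The SD of Slc7a2 was 0.46 here and 0.22 in the other 6 tumours. Brinp3 read 6.71, 5.60, 7.36, 6.54, 8.69 and 6.25, highest in tumour 5 and 8.54-fold above its lowest value. Its SD was 1.07 against 0.09 in the other 6 tumours. Slc7a2 and Brinp3 were picked with their spread among the control tumours seen. A lower SD in the other 6 tumours is therefore partly built in by that choice. Retnla, a product of alternatively activated macrophages, read 6.44, 4.89, 7.56, 7.96, 7.70 and 6.49 and was low in tumour 2. Over the genes above the receptor background, the first principal component held 39.4% of the variance and separated tumour 2. The second held 25.1%, with tumours 3 and 1 at opposite ends, and the third 17.8%, with tumour 6 at one end.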
